A study of Mus musculus with 17 samples.

Results

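The genes described here encode 8 regulators of G protein signalling (RGS proteins): Rgs2, Rgs3, Rgs4, Rgs5, Rgs9, Rgs10, Rgs16 and Rgs17. They were found as the probe sets whose only gene symbol in the platform's annotation was one of these names, which gave 24 of the 45037 probe sets and 8 of the 18193 genes with such a probe set. Each member had a probe set: Rgs2, Rgs3 and Rgs5 had 4 each, Rgs4, Rgs9 and Rgs16 had 3 each, Rgs17 had 2 and Rgs10 had 1. The members were picked because Rgs4 was higher and Rgs2 and Rgs5 were lower in cultured islets. Their differences between times are therefore given as a description. Nothing is read from the counts past a threshold that are given further on.

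The samples were whole islets from the pancreas of C57BL/6 mice. Islets are groups of endocrine cells, most of which make insulin in the mouse (beta cells), and they come with vessels, immune cells and other cells. They were isolated in 6 batches, each a pool from 4 mice, and each batch was divided for harvest at 0, 24 and 48 h after isolation and kept until then in F12K medium with fetal bovine serum, with no other treatment. The groups were therefore 0 h (5 arrays), 24 h (6 arrays) and 48 h (6 arrays), all of the same strain. Batch 5 has no 0 h array among those analysed here, and a replicate number is the number of the batch.

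RGS proteins end a signal that a receptor has passed to a heterotrimeric G protein: their RGS domain binds the GTP-loaded alpha subunit and speeds up GTP hydrolysis, so that the subunit returns to its inactive state. The R4 subfamily (here Rgs2, Rgs3, Rgs4, Rgs5 and Rgs16) consists mostly of small proteins that act on the Gi and Gq classes of alpha subunit, and Rgs2 prefers Gq. Rgs9 belongs to the R7 subfamily, Rgs10 to R12 and Rgs17 to RZ. In mouse beta cells Rgs4 is known to restrain insulin release through the muscarinic M3 receptor, and Rgs5 is widely used as a marker of pericytes, the contractile cells on capillaries. Rgs4, Rgs5 and Rgs16 proteins start with methionine and cysteine and are short-lived, since the cysteine can be oxidised and the protein then broken down by the N-degron pathway.

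The 3 genes with the largest differences are neighbours in part: in the RefSeq annotation of GRCm38.p6, Rgs4 and Rgs5 lie next to each other on chromosome 1, yet they differed from 0 h in opposite directions. Rgs2 lies next to Rgs13 on the same chromosome. The 250 bases before their transcription starts are given here, from RefSeq on GRCm38.p6 and 5′ to 3′ on the strand of each gene, to set the neighbours Rgs4 and Rgs5, which differed in opposite directions, beside Rgs2. Capitals mark matches on either strand to 3 motifs. The first is TGACG, the core of the cAMP response element. The others are CCAAT, the CCAAT box, and TATAAA, 1 form of the TATA box, and none of the matches overlap. The Rgs4 promoter is chr1:169747643-169747892 (minus strand), that of Rgs5 is chr1:169655251-169655500 (plus strand) and that of Rgs2 is chr1:144004150-144004399 (minus strand).
Rgs4: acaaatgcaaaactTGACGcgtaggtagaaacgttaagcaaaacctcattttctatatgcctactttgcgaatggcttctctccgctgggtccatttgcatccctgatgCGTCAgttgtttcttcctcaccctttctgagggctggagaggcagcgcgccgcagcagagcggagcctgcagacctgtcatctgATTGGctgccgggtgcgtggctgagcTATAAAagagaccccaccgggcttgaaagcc
Rgs5: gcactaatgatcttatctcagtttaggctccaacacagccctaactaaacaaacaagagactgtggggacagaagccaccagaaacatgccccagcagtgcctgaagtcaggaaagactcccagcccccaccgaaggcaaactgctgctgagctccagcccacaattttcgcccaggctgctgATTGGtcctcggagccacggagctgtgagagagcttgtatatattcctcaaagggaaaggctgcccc
Rgs2: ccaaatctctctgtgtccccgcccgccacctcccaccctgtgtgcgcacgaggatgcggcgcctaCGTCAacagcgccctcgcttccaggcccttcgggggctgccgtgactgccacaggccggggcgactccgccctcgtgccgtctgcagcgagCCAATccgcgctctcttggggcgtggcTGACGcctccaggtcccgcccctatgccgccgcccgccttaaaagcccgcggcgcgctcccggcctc

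TGACG stood at 2 places in the promoters of Rgs4 and of Rgs2 and at none in the other 6 members, and 17.9% of 32536 promoters of that length hold it. CCAAT was found for 5 members (Rgs2, Rgs4, Rgs5, Rgs9 and Rgs16) and in 33.8% of all promoters. TATAAA was found for Rgs3, Rgs4 and Rgs9, and in 12.3% of all promoters. It stood at -31 to -26 before the start of Rgs4. The matches of Rgs3 (-100 to -95 and -177 to -172, in separate promoters) and Rgs9 (-195 to -190) lay farther from the start. Only the exact string was sought, so variants of it, such as tatatat in the Rgs5 sequence, were not counted. The 7-letter AP-1 motif TGANTCA was found for Rgs17 and in 6.73% of all promoters. The full cAMP response element TGACGTCA, the ATF4 motif TGATGNAA, the hypoxia motif core ACGTG, the NF-kappaB motif and the CArG box matched in 0 members, and in 1.56%, 3.4%, 16.7%, 1.4% and 1.48% of all promoters. Members were counted by gene and the shares by promoter, and a gene such as Rgs3 can have several promoters. These matches describe letters only.

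Levels are the deposited values on a log2 scale, and a level is compared only within a probe set. Over all arrays the median level was 3.52, and levels at or under it were not separated from background. Array medians ran from 3.47 to 3.57, and correlations between arrays from 0.976 to 0.995. The arrays least like the rest of their time were 0 h replicate 3 and 24 h replicate 5 (median r of 0.987 and 0.988). The label of islet tissue was borne out by beta cell markers, whose 9-gene mean was 10.99 to 11.08 at 0 h, 10.45 to 10.73 at 24 h and 10.74 to 10.83 at 48 h. In these bulk samples, fewer cells of a type and less RNA per cell cannot be told apart.

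Rgs4 was far higher in cultured islets than in fresh ones. Its brightest probe set, 1416286_at, stood at 8.21, 7.71, 7.57, 7.75 and 8.27 on the 0 h arrays (replicates 1, 2, 3, 4 and 6), between 10.29 and 11.25 at 24 h (median 10.96) and between 10.12 and 10.91 at 48 h (median 10.47). Every array at 24 h and 48 h was above the highest 0 h array. At 24 h the level averaged 10.89 ± 0.35 (SD, n = 6), against 7.90 ± 0.32 at 0 h (SD, n = 5), a log2 difference of 2.99 ± 0.18 (SE) or 7.94-fold. At 48 h it averaged 10.52 ± 0.32 (SD, n = 6), a difference of 2.62 ± 0.18 or 6.14-fold from 0 h. The difference held within each of the 5 batches with both times, by 2.49 to 3.57 at 24 h and by 1.91 to 3.34 at 48 h. At 48 h the level was below that at 24 h in 6 of 6 batches, by 0.01 to 0.76, a mean difference of -0.37 ± 0.17.

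A second Rgs4 probe set, 1416287_at, was also higher at both culture times, at a dimmer level. It stood at 6.09, 5.18, 4.45, 4.40 and 4.97 at 0 h, at 7.86 to 8.76 (median 8.33) at 24 h and at 7.25 to 8.81 (median 8.11) at 48 h. The times did not overlap with 0 h, and the differences were 3.30 ± 0.30 at 24 h (9.84-fold) and 2.99 ± 0.30 at 48 h (7.95-fold). Unlike on 1416286_at, 48 h was above 24 h in 3 batches and below it in 3 (-1.08 to 0.19, mean difference -0.31 ± 0.28). The smallest difference within a batch was in batch 1, whose 0 h array was the highest of this probe set (1.81 at 24 h and 1.16 at 48 h). After the mean of each time was taken off, both probe sets still varied together over the 17 arrays (r = 0.668, a description of arrays that share their RNA). The probe set 1448285_at lay under the median level on every array, at 2.13 to 2.39 at 0 h, 2.62 to 2.87 at 24 h and 2.44 to 2.74 at 48 h. Its differences of 0.51 and 0.38 at 24 h and 48 h are therefore not separated from background.

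**Figure D1:**
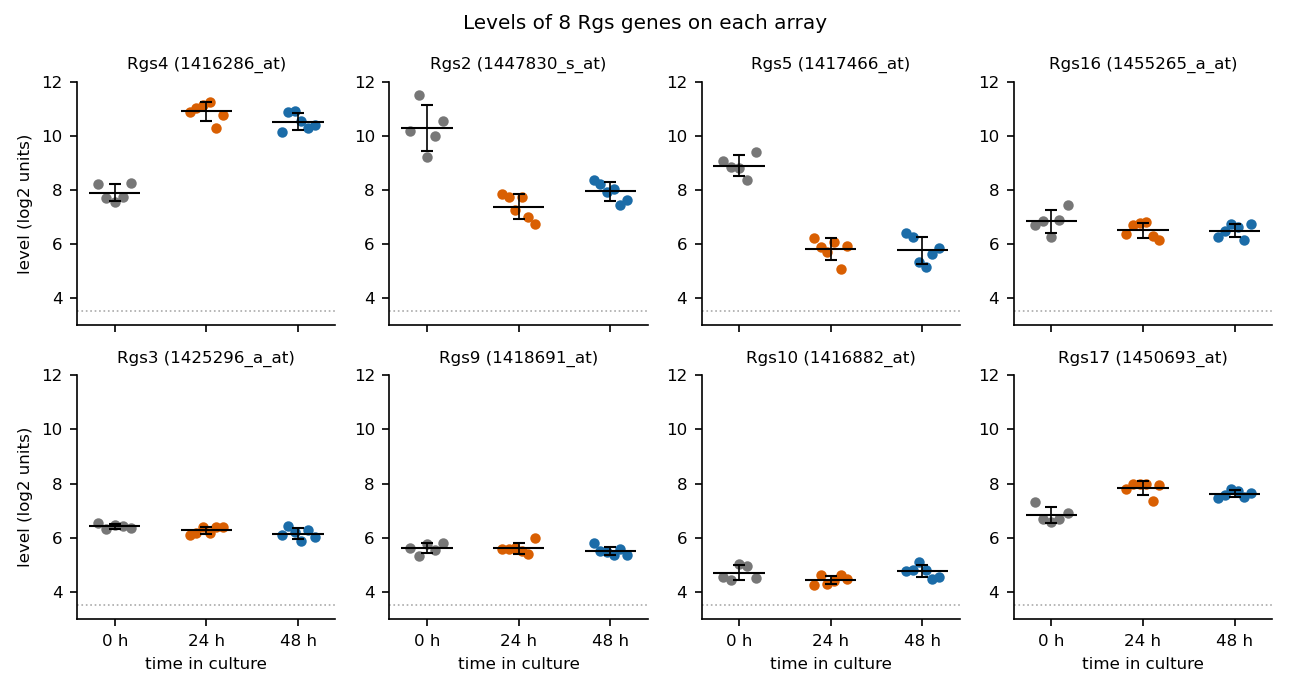
Level of each of the 8 genes (log2 units, vertical axis) on each array by time in culture (horizontal axis), for the probe set that stands for the gene. Points are arrays (5, 6 and 6), lines and bars are means ± SD, and the dotted line is the table median of 3.52. The Rgs4 points of 24 h and 48 h lie above all 0 h points, those of Rgs2 and Rgs5 lie below them, and Rgs3, Rgs9, Rgs10 and Rgs16 overlap between times.

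Rgs2, which dampens Gq signalling and whose own transcript is readily induced by cAMP and calcium in many cells, went the opposite way. Its probe set 1447830_s_at stood at 10.16, 11.50, 9.20, 9.98 and 10.54 on the 0 h arrays, at 6.75 to 7.85 at 24 h (median 7.49) and at 7.46 to 8.38 at 48 h (median 7.99). All cultured arrays were below all fresh ones, and the fresh ones were the most spread, with replicate 2 highest and replicate 3 lowest. The level averaged 7.39 ± 0.45 at 24 h (SD, n = 6), against 10.28 ± 0.84 at 0 h (SD, n = 5), a difference of -2.89 ± 0.30 or 7.42-fold lower. At 48 h it averaged 7.94 ± 0.35 (SD, n = 6), which was 5.04-fold lower than at 0 h (-2.33 ± 0.30). It was lower in 5 of 5 batches at both times.

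Between 24 h and 48 h Rgs2 was higher again in every batch, by 0.32 to 0.87 in 6 of 6 (mean difference 0.56 ± 0.29), while the arrays of both times overlapped. Another probe set, 1419248_at, showed this too: it was higher at 48 h than at 24 h in 6 of 6 batches, by 0.12 to 1.01 (0.47 ± 0.26). Against 0 h that probe set was 5.29-fold lower at 24 h (-2.40 ± 0.27) and 3.83-fold lower at 48 h (-1.94 ± 0.27). The dimmer 1419247_at stood at 7.19, 8.51, 5.30, 6.25 and 6.48 at 0 h, at 3.67 to 4.90 at 24 h and at 4.08 to 4.93 at 48 h. It was 5.78-fold lower at 24 h and 5.07-fold lower at 48 h, and higher at 48 h than at 24 h in 4 of 6 batches. The last probe set, 1443250_at, was under the median level on all arrays.

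The spread of Rgs2 among fresh islets was shared by its probe sets. On all 3 that were above the median level, 0 h replicate 2 was the highest and 0 h replicate 3 the lowest, and deviations from the time means correlated at 0.965 for the brightest pair and at 0.825 and 0.841 with 1419247_at (17 arrays, a description). Left out in turn, these arrays moved the difference at 24 h to -2.59 without replicate 2 and to -3.16 without replicate 3. The mean of 14 genes induced by cAMP and calcium, such as Fos and Nr4a1, was 6.61, 5.59, 5.71, 5.62 and 6.09 on the 0 h arrays. Its part in the spread of Rgs2 was not tested.

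Rgs5 was also lower in culture, to about the same level at 24 h and 48 h. Its probe set 1417466_at stood at 9.05, 8.86, 8.82, 8.35 and 9.40 at 0 h, at 5.08 to 6.22 at 24 h (median 5.92) and at 5.14 to 6.41 at 48 h (median 5.73). All cultured arrays were below all fresh ones, and the arrays of 24 h and 48 h overlapped. It averaged 5.82 ± 0.41 at 24 h and 5.77 ± 0.51 at 48 h (SD, n = 6 each), against 8.89 ± 0.38 at 0 h (SD, n = 5). It was 8.41-fold lower at 24 h (-3.07 ± 0.24) and 8.70-fold lower at 48 h (-3.12 ± 0.24), in 5 of 5 batches each. Between 48 h and 24 h the difference was -0.05 ± 0.23, higher in 3 batches and lower in 3.

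The other Rgs5 probe sets were dimmer. On 1420941_at the 0 h arrays stood at 7.10, 6.97, 5.80, 5.37 and 6.08, those of 24 h at 3.31 to 4.25 and those of 48 h at 3.07 to 3.88. As 3 arrays at 24 h and 2 at 48 h were under the median level, it was at least 6.12-fold lower at 24 h and at least 6.57-fold lower at 48 h. On 1420940_x_at the level was 3.84 to 4.15 at 0 h and was under the median on 6 arrays at 24 h and 4 at 48 h, and 1420942_s_at was under it on 3, 6 and 6 arrays at 0, 24 and 48 h. The difference of 1420940_x_at at 24 h, -0.77, is a lower bound of size. That of 1420942_s_at, -0.97, is not separated from background, since its mean at 0 h (3.37) was under the median level too. Deviations from the time means correlated at 0.10 to 0.275 between the probe sets of Rgs5 (17 arrays, a description).

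Since Rgs5 marks pericytes, the other markers of pericytes and smooth muscle are set beside it. Of 16 measured, 1 was higher and 4 were lower at 24 h against 0 h by limma's test over all probe sets. At 48 h 1 was higher and 4 were lower too (31.2% at each time). Over all genes, 12.1% passed at 24 h (5.44% up and 6.66% down) and 11.7% at 48 h (6.45% up and 5.27% down). The mean of the list was 4.10 to 4.21 at 0 h, 3.85 to 3.97 at 24 h and 3.91 to 4.14 at 48 h, with 5, 7 and 7 genes under the median level. Acta2, smooth muscle actin, was 3.17-fold lower at 24 h (-1.66 ± 0.17, adjusted p = 2.17e-06), and then rose by 1.13 ± 0.16 at 48 h against 24 h (adjusted p = 0.00288). Vtn fell by at least 1.10 at 24 h (adjusted p = 4e-07), since it was under the median level there on all 6 arrays. Tagln fell by 0.96 at 24 h (adjusted p = 0.000314) and by 0.79 at 48 h (adjusted p = 0.00244). Notch3 averaged under the median level at both culture times. It fell by at least 0.67 at 24 h (adjusted p = 1.7e-05) and 0.54 at 48 h (adjusted p = 0.000248). Myh11, under that level on average at each time, was lower by 0.455 at 48 h (adjusted p = 0.011). Kcnj8, a potassium channel subunit of pericytes and smooth muscle, went up 2.53-fold at 24 h (1.34 ± 0.17, adjusted p = 2.41e-05) and 2.68-fold at 48 h (1.42 ± 0.17, adjusted p = 1.77e-05). Pdgfrb and Cspg4, also markers of this list, were at 4.68 and 4.15 at 24 h, against 4.73 and 4.19 at 0 h (adjusted p = 0.801 and 0.865). A dimmer probe set of each was lower, by 0.81 for Pdgfrb and 0.78 for Cspg4, and those of Acta2 differed by as little as -0.06. The part of these cells in the difference of Rgs5 was not tested.

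Rgs17, an RZ member that acts on the Gi class, was moderately higher in culture. Its probe set 1450693_at stood at 7.33, 6.68, 6.60, 6.68 and 6.90 at 0 h, at 7.34 to 7.99 at 24 h (median 7.96) and at 7.48 to 7.80 at 48 h (median 7.62). The times did not overlap with 0 h, but 24 h replicate 5 (7.34) and 0 h replicate 1 (7.33) nearly met. At 24 h it was 2.00-fold higher (1.00 ± 0.13) and at 48 h 1.72-fold higher (0.78 ± 0.13), in 5 of 5 batches. The smallest difference within a batch was in batch 1, 0.48 at 24 h and 0.15 at 48 h. The other probe set, 1439779_at, was 1.88-fold higher at 24 h (0.91 ± 0.18) and 1.71-fold higher at 48 h (0.78 ± 0.18), also in 5 of 5 batches.

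**Figure D2:**
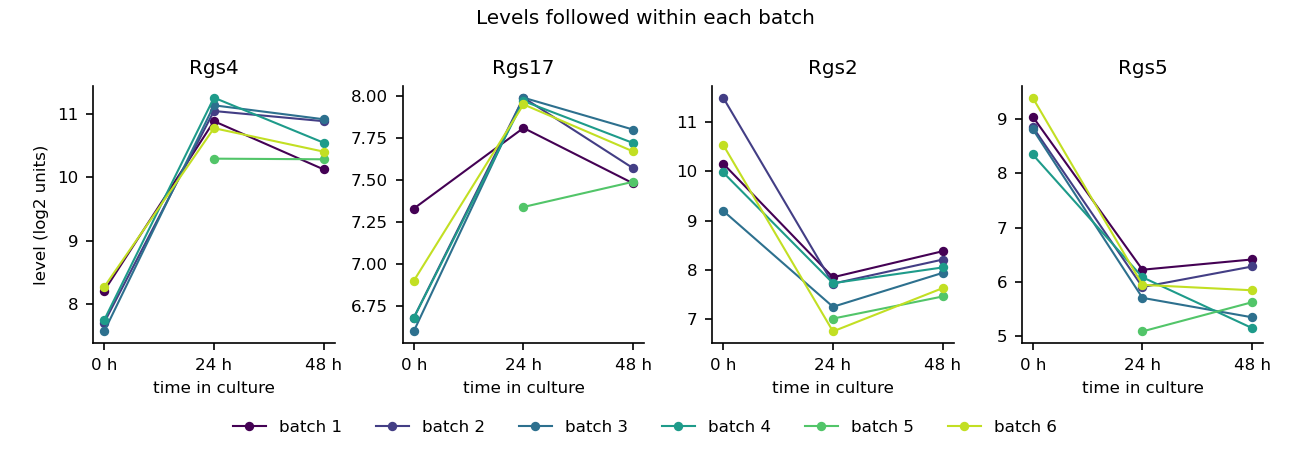
Level (log2 units, vertical axis, with its own range per gene) of Rgs4, Rgs17, Rgs2 and Rgs5 over time in culture (horizontal axis), 1 line per batch, on the probe set that stands for each gene. Batch 5 has no point at 0 h. From 24 h to 48 h the lines of Rgs4 go down and those of Rgs2 go up in 6 of 6 batches, and those of Rgs5 split 3 and 3. On the other bright Rgs4 probe set, 1416287_at, which is not drawn, 3 batches were higher and 3 lower.

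The other 4 members differed little between times. Rgs16, which marks endocrine progenitors in the mouse pancreas and is another R4 member, was at 6.72, 6.87, 6.27, 6.90 and 7.43 on 1455265_a_at at 0 h, at 6.14 to 6.80 at 24 h and at 6.16 to 6.74 at 48 h. The times overlapped, with differences of -0.32 ± 0.17 at 24 h and -0.34 ± 0.17 at 48 h. Among the 0 h arrays, replicate 6 was the highest on the 2 probe sets above the median level, and both varied together within times (r = 0.712, 17 arrays).

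Rgs3, an R4 member with several long and short isoforms, was at 6.31 to 6.53 at 0 h, 6.12 to 6.41 at 24 h and 5.87 to 6.44 at 48 h on 1425296_a_at. It was 1.20-fold lower at 48 h than at 0 h (-0.26 ± 0.09), in 4 of 5 batches. Its probe set 1449516_a_at was lower at 48 h in 5 of 5 batches (-0.22 ± 0.11), 1454026_a_at differed by 0.05 ± 0.13 and 1425701_a_at was under the median level on all arrays.

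Rgs9, known from photoreceptors and the striatum, was at 5.32 to 5.79 at 0 h, 5.39 to 5.99 at 24 h and 5.37 to 5.80 at 48 h on 1418691_at. Its difference from 0 h was 0.01 ± 0.11 at 24 h and -0.10 ± 0.11 at 48 h, and both other probe sets were under the median level on all arrays. Rgs10, known for its role in microglia and macrophages, was at 4.54, 4.46, 5.04, 4.97 and 4.52 at 0 h, at 4.24 to 4.62 at 24 h and at 4.49 to 5.12 at 48 h. It was higher at 48 h than at 24 h in 5 of 6 batches (0.32 ± 0.12), with overlapping arrays. Over 16 macrophage and dendritic cell markers the list mean was 6.04 to 6.60 at 0 h, 5.41 to 5.76 at 24 h and 5.56 to 5.94 at 48 h, and its part in the level of Rgs10 was not tested.

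In all, 13 of the 24 probe sets were past adjusted p of 0.05 in limma's fit at 24 h against 0 h, 5 higher (Rgs4 and Rgs17) and 8 lower (Rgs2 and Rgs5), where 8.58% of all probe sets were (3.86% higher and 4.72% lower). The count was 13 at 48 h too, in the same directions, where 8.47% of all were (4.67% higher and 3.8% lower). At each of these times, 1 of the higher and 2 of the lower averaged at or under the median level, not separated from background. As the members were picked on these differences, nothing is read from those shares. Between 48 h and 24 h 0 of 24 were past it in limma's fit (3 at an unadjusted p under 0.05), where 0.444% of all were (0.266% higher, 0.178% lower). The arrays did not overlap on 12 of 24 probe sets in either comparison with 0 h (4 higher and 8 lower at 24 h, 5 higher and 7 lower at 48 h), where 6.28% (2.84% higher, 3.44% lower) and 6.6% (3.61% higher, 2.99% lower) of all did not. All 24 overlapped between 48 h and 24 h, where 1.11% of all did not (0.626% higher, 0.486% lower).

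Of the 24, 17 averaged above the median level and 7 did not. The study's design asked for mean linear signals that exceed 4 times, or stay below 0.25 times, the 0 h signal. By that rule 2 probe sets of Rgs4 passed upwards, and 3 of Rgs2 and 2 of Rgs5 passed downwards, at 24 h and at 48 h. Just inside that rule at 48 h was 1419248_at of Rgs2, at 0.238 of its 0 h signal. Nearest outside it were 1420942_s_at of Rgs5 at 0.508 and, upwards, 1439779_at of Rgs17 at 1.70.

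**Figure D3:**
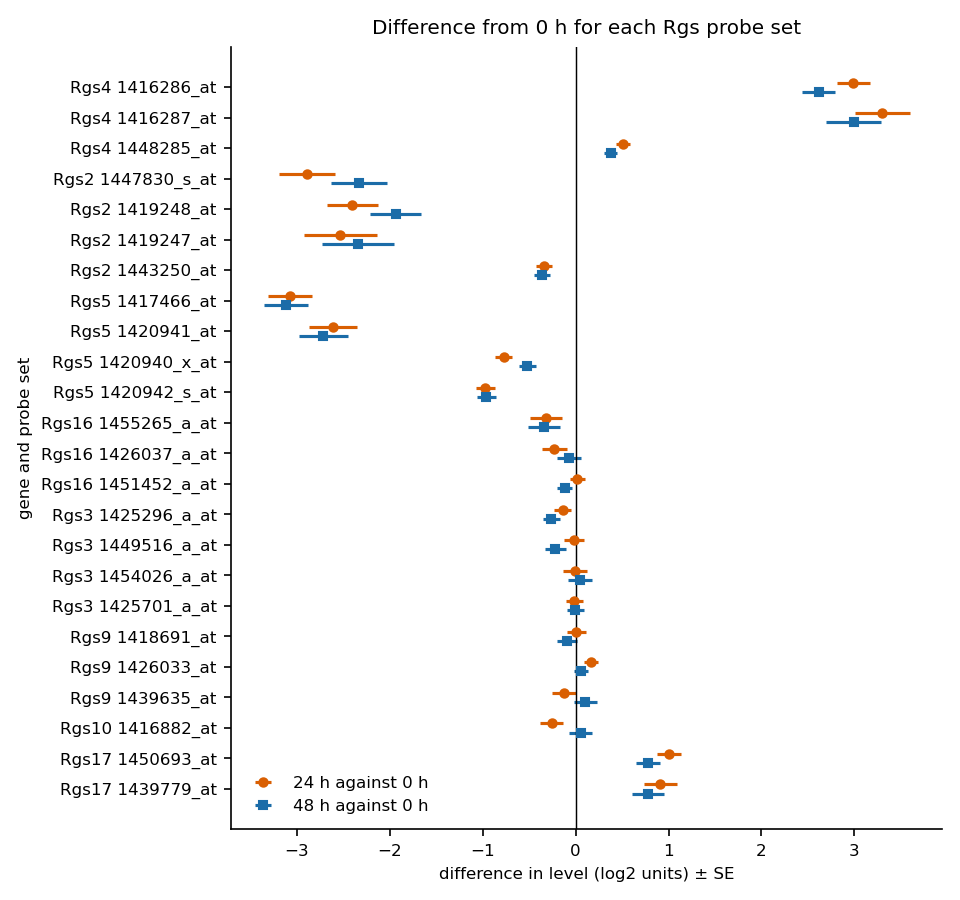
Difference in level from 0 h (log2 units ± SE, horizontal axis) at 24 h (circles) and 48 h (squares) for each of the 24 probe sets (vertical axis), grouped by gene. The 2 brightest probe sets of Rgs4 lie between 2.62 and 3.30, the 3 brightest of Rgs2 between -2.89 and -1.94 and the 2 brightest of Rgs5 between -3.12 and -2.61.

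Within a time, where differences between times play no part, the 3 genes were not shown to vary together. In a family of 8 relations over the 6 arrays of 24 h or of 48 h, 0 passed an exact permutation test (two-sided), and 0 had an unadjusted exact p under 0.05 for either coefficient. The lowest adjusted p was 0.717 for Pearson's r and 0.712 for Spearman's rho. At 24 h Rgs4 and Rgs5 had r = 0.729 (exact p = 0.214, adjusted 0.717) and rho = 0.314 (exact p = 0.564, adjusted 0.752). Without the 2 arrays farthest from the median of Rgs4, r was -0.641. The same step on the first gene of other pairs moved r either way. At 24 h it went from 0.573 to 0.901 for Rgs2 and Rgs5, and from 0.569 to 0.363 for Rgs4 and Rgs2. At 48 h it went from -0.278 to -0.901 for Rgs4 and Rgs5. So few arrays remained that nothing is read from such values. Rgs5 and the mean of the pericyte markers had r = -0.250 at 24 h (exact p = 0.700, adjusted 0.775) and r = 0.366 at 48 h (exact p = 0.500, adjusted 0.748). Spearman's rho was -0.086 at 24 h (exact p = 0.919, adjusted 1.00) and 0.371 at 48 h (exact p = 0.497, adjusted 0.752). Without the 2 farthest arrays r was -0.617 and 0.337.

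Over all 17 arrays, which share the 3 times, the genes most like each of the 3 were ranked by Pearson's r among 11915 genes above the median level, as a description. Those most like Rgs4 were Crybb3, a crystallin gene (0.984), Psmb8, an immunoproteasome subunit (0.971), the tyrosyl-tRNA synthetase Yars (0.970), the gasdermin Gsdma (0.970) and the stress-induced pseudokinase Trib3 (0.969). Those most like Rgs2 were Slitrk6 (0.944), the antiproliferative gene Btg1 (0.940), Fgd4 (0.939), Pomgnt2 (0.939) and P2ry1, a Gq-coupled ADP receptor (0.938). Those most like Rgs5 were the caveolae genes Cav1 (0.965) and Cavin2 (0.962), then Exoc3l2 (0.950), Grasp (0.949) and Kctd12b (0.941). By Spearman's rank correlation the top 5 shared 0, 1 and 0 of these genes, and Rgs17 was the fourth most like Rgs4 (rho = 0.951).

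Of 13 other RGS genes listed, 11 were measured, and 5 of those averaged above the median level. By limma's test over all probe sets 1 rose at 24 h and 1 at 48 h, and 0 fell (9.09% at each time), where 12.1% and 11.7% of all genes changed. The median difference was -0.06 at 24 h and -0.02 at 48 h, against -0.01 over all probe sets at both times. Between 48 h and 24 h 0 passed in limma's test (2 at an unadjusted p under 0.05), where 0.759% of all genes did. The member that rose was Rgs1, an R4 gene of lymphocytes, at 3.10 ± 0.07 at 0 h (SD, n = 5), 3.39 ± 0.12 at 24 h and 3.70 ± 0.20 at 48 h (SD, n = 6 each).

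Rgs1 was under the median level on all arrays at 0 h and 24 h and on 1 of 6 at 48 h, so its increase at 48 h was at least 1.52-fold (0.60 ± 0.09, adjusted p = 0.000202, 5 of 5 batches). Its call at 24 h (0.29 ± 0.09, adjusted p = 0.0486) was lost with the batch as a block (adjusted p = 0.104) and in 12 of 17 fits that left out 1 array, with 0 h replicate 4 giving the highest (adjusted p = 0.120). Rgs7, an R7 member of neuroendocrine cells, was at 7.28 ± 0.19 at 24 h and 7.35 ± 0.13 at 48 h (SD, n = 6 each), against 7.23 ± 0.09 at 0 h (SD, n = 5). Differences from 0 h at 24 h were -0.24 ± 0.22 for Rgs11, -0.06 ± 0.08 for Rgs12, 0.08 ± 0.09 for Rgs14 and 0.05 ± 0.21 for Rgs19. The other 5, Rgs6, Rgs8, Rgs13, Rgs18 and Rgs20, were under the median level.

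**Figure D4:**
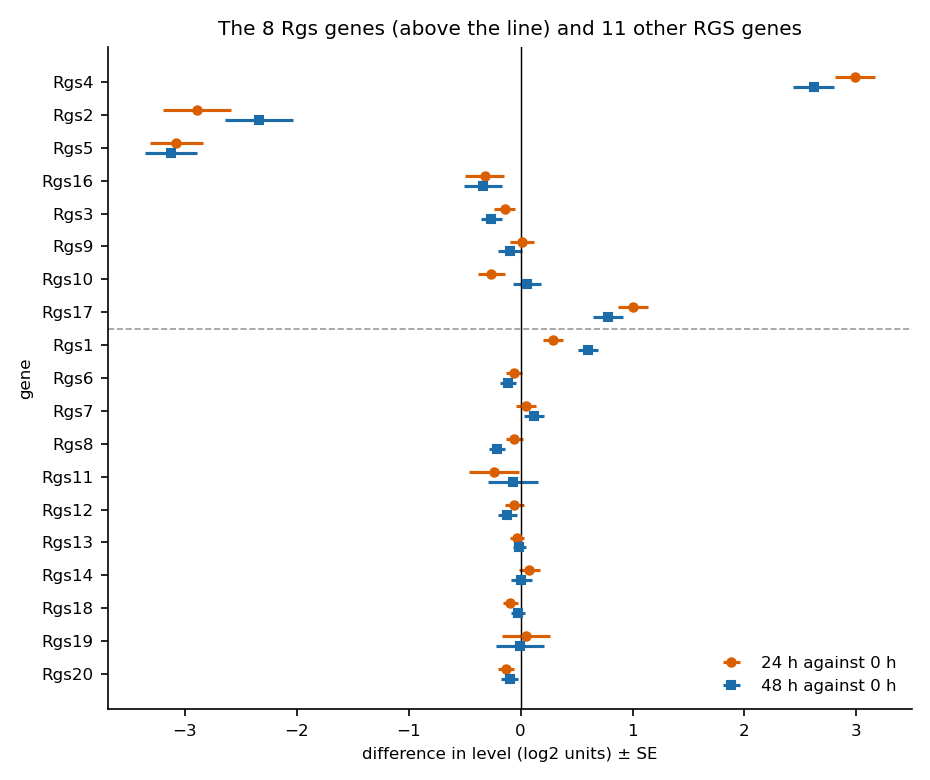
Difference in level from 0 h (log2 units ± SE, horizontal axis) at 24 h (circles) and 48 h (squares) for the 8 genes described here (above the dashed line) and 11 other RGS genes (below it), each by the probe set that stands for it. Among the 11, the values lie between -0.24 and 0.60, and Rgs1 is the gene that passed the test.

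Genes of G protein signalling and of related sets were counted in 9 lists with 115 measured genes. The lists hold 14 other proteins with an RGS homology domain, 14 genes induced by cAMP and calcium and 7 N-degron enzymes. The totals are therefore not of G protein signalling alone. At 48 h against 0 h, 2, 3 and 2 genes of those lists rose, in that order. By limma's test 6 rose and 10 fell at 24 h against 0 h (13.9%, against 12.1% of all genes, 5.44% up and 6.66% down), and 13 rose and 7 fell at 48 h (17.4%, against 11.7%, 6.45% up and 5.27% down). The count at 48 h was 11 without 0 h replicate 3 and 13 without 0 h replicate 6. At 48 h against 24 h 1 rose and 1 fell (1.74%, against 0.759%, 0.429% up and 0.33% down). The median difference over the 115 was -0.02 at 24 h and -0.01 at 48 h.

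For the counts of the separate lists from here to the N-degron enzymes, the share over all genes is the one given above. It was 12.1% at 24 h (5.44% up and 6.66% down). At 48 h it was 11.7% (6.45% up and 5.27% down). Receptors come first in the pathway. Of 19 measured receptors of islets, 1 rose and 3 fell at 24 h (median 0.01), and 1 rose and 2 fell at 48 h (median -0.02), with 9 above the median level. P2ry1 fell 2.68-fold at 24 h (-1.42 ± 0.13, adjusted p = 1.07e-06) and 2.41-fold at 48 h (-1.27 ± 0.13, adjusted p = 5.3e-06). Its level was 5.06 to 5.23 at 24 h and 5.06 to 5.50 at 48 h, against 6.22 to 7.08 at 0 h. The cannabinoid receptor Cnr1, coupled to Gi, rose 2.30-fold at 24 h (1.20 ± 0.26, adjusted p = 0.00534). At 48 h its call (0.91 ± 0.26, adjusted p = 0.0356) failed in 7 of 17 fits without 1 array (adjusted p = 0.0790 without 48 h replicate 2). The galanin receptor Galr1 fell by 0.83 (SE 0.19, adjusted p = 0.00749) and the calcium-sensing receptor Casr by 0.51 (SE 0.10, adjusted p = 0.00147) at 24 h. At 48 h the call of Casr (-0.33, adjusted p = 0.0376) was lost with the batch as a block (adjusted p = 0.0819). Chrm3, the M3 receptor whose signal Rgs4 restrains, was under the median level on all 17 arrays.

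The alpha subunits are the direct targets of RGS proteins. Of 15 measured, 2 rose and 2 fell at 24 h (26.7%, median 0.05), and 4 rose and 2 fell at 48 h (40.0%, median 0.03). Gnai2, a Gi subunit, stood at 9.51 to 9.74 at 24 h and 9.19 to 9.50 at 48 h, against 8.76 to 8.87 at 0 h, with no overlap. It rose 1.75-fold at 24 h (0.81 ± 0.07, adjusted p = 1.97e-07) and 1.41-fold at 48 h (0.50 ± 0.07, adjusted p = 5.77e-05). Gnai3 rose by 0.38 ± 0.10 at 24 h (adjusted p = 0.0219, and 0.0670 once batch is a block) and by 0.47 ± 0.10 at 48 h (adjusted p = 0.00522). Gnaz, the Gi-class subunit that RZ proteins act on, rose by 0.43 ± 0.11 at 48 h (adjusted p = 0.0170, or 0.0543 without 0 h replicate 3). Gnal, a Gs-like subunit, fell by 0.84 at 48 h (SE 0.13, adjusted p = 0.000269); its call at 24 h (-0.47, adjusted p = 0.0256) was lost with the batch as a block (adjusted p = 0.0605). Gnat2, the cone transducin subunit, fell by 0.56 at 24 h (SE 0.08, adjusted p = 0.000174). Between 48 h and 24 h 1 of 15 passed (6.67%, against 0.759% of all genes). It was Gnai2, which was lower by 0.31 (adjusted p = 0.0317). That call failed in 8 of 17 fits without 1 array.

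Of 15 beta and gamma subunits, 2 rose and 2 fell at 24 h (median 0.01), and 1 rose and 1 fell at 48 h (median -0.01). Gng11 rose by 0.62 ± 0.15 at 24 h (adjusted p = 0.0115), and Gnb4 fell by 0.49 (SE 0.13, adjusted p = 0.0179). Gng12 fell by 0.36 at 24 h (SE 0.07, adjusted p = 0.00289) and was higher at 48 h than at 24 h by 0.35 (adjusted p = 0.0236), a call lost with a batch block (adjusted p = 0.0659). At 48 h Gnb1 rose by 0.29 (adjusted p = 0.00730), and Gng2 fell by 0.39 (adjusted p = 0.0165, and 0.0541 once batch is a block). Of the 4 partners of R7 proteins, 0 passed in limma's test at 24 h and 0 at 48 h (0 and 1 at an unadjusted p under 0.05), with medians of -0.12 and -0.08. Gnb5, without which Rgs9 protein is unstable, was at 7.67 ± 0.22 at 24 h and 7.89 ± 0.19 at 48 h (SD, n = 6 each), against 7.70 ± 0.07 at 0 h (SD, n = 5).

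Of 19 effectors downstream of G proteins, 0 rose and 3 fell at 24 h (median -0.05), and 0 rose and 2 fell at 48 h (median -0.08). Plcb4, a phospholipase C that Gq activates, fell 1.64-fold at 24 h (-0.71 ± 0.11, adjusted p = 0.000355) and 1.56-fold at 48 h (-0.64 ± 0.11, adjusted p = 0.00110), while its 5 probe sets ranged from -0.71 to 0.04 at 24 h. Plcb1 fell by 0.40 at 24 h (SE 0.08, adjusted p = 0.00323). Its call at 48 h (-0.28, adjusted p = 0.0413) and that of Adcy3 at 24 h (-0.35, adjusted p = 0.0403) were lost with the batch as a block (adjusted p = 0.0660 and 0.0616). Of 14 other proteins with an RGS homology domain, 0 passed in limma's test at 24 h (1 at an unadjusted p under 0.05, median -0.00), and 2 rose at 48 h (median 0.03). These were the sorting nexins Snx25 (0.34, adjusted p = 0.0220, or 0.0688 without 0 h replicate 3) and Snx13 (0.24, adjusted p = 0.0268, and 0.0550 once batch is a block). Of 8 arrestins and other modulators, 0 passed in limma's test at 24 h and 0 at 48 h (3 and 1 at an unadjusted p under 0.05, median -0.09 at both).

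Among 14 genes induced by cAMP and calcium, the kind of stimulus that also induces Rgs2, 0 passed in limma's test at 24 h (4 at an unadjusted p under 0.05, median 0.05) and 3 rose at 48 h (median -0.03). Nr4a2 rose 2.06-fold at 48 h (1.04 ± 0.21, adjusted p = 0.00347), Crem 1.73-fold (0.79 ± 0.15, adjusted p = 0.00241) and Pde4b 1.66-fold (0.73 ± 0.17, adjusted p = 0.00839). Other probe sets of Nr4a2 and Pde4b went as low as -0.04 and -0.02. Among 7 enzymes of the cysteine branch of the N-degron pathway, 1 rose at 24 h (median 0.03) and 2 rose at 48 h (median 0.09). The ubiquitin ligase Ubr2 rose by 0.45 ± 0.09 at 24 h (adjusted p = 0.00212) and by 0.49 ± 0.09 at 48 h (adjusted p = 0.00103). Metap1, which removes the first methionine, rose by 0.27 at 48 h (adjusted p = 0.0374, and 0.0727 once batch is a block).

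Markers of other cells in the preparation moved with time as well, and their part in the differences of the RGS genes was not tested. For all marker counts that follow, the share over all genes was 12.1% at 24 h (5.44% up and 6.66% down). It was 11.7% at 48 h (6.45% up and 5.27% down). Of 15 endothelial markers 1 rose and 6 fell at 24 h (median -0.16), and 0 rose and 10 fell at 48 h (median -0.51), led by Ptprb (-2.34 at 24 h and -2.82 at 48 h, against 0.10 and 0.16 on its highest other probe set). Their mean was 5.40 to 5.72 at 0 h, 4.89 to 5.08 at 24 h and 4.41 to 4.81 at 48 h. Of 16 macrophage and dendritic cell markers 1 rose and 10 fell at 24 h (median -0.76), and 2 rose and 6 fell at 48 h (median -0.29). Of 10 markers of fibroblasts and stellate cells 1 rose and 3 fell at 24 h (median -0.08), and 5 rose and 1 fell at 48 h (median 0.24). Of 9 beta cell markers 0 rose and 7 fell at 24 h (median -0.48), and 0 rose and 5 fell at 48 h (median -0.31).

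Of 7 markers of alpha, delta and gamma cells 4 fell at 24 h (median -0.72) and 1 fell at 48 h (median -0.31). Of 10 acinar markers 1, Clps, fell at 24 h (median -0.55) and 6 fell at 48 h (median -2.22), and their mean lay between 5.34 and 8.72 at 0 h, 3.85 and 7.28 at 24 h, and 3.32 and 5.26 at 48 h. The highest acinar mean was that of 0 h replicate 4, on which Rgs5 was the lowest of the 0 h arrays and Rgs4 and Rgs2 were within their range. Of 8 lymphocyte markers 1, Cd79b, fell at 48 h (median -0.02). The calls of Clps and Cd79b were lost with a batch block (adjusted p = 0.0543 and 0.0923). By limma's test 0 of those 8 passed at 24 h, and 0 of 7 markers of Schwann cells and neurons passed at either time (0 for lymphocytes, and 2 at 24 h and 1 at 48 h for the neural list, at an unadjusted p under 0.05).

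**Figure D5:**
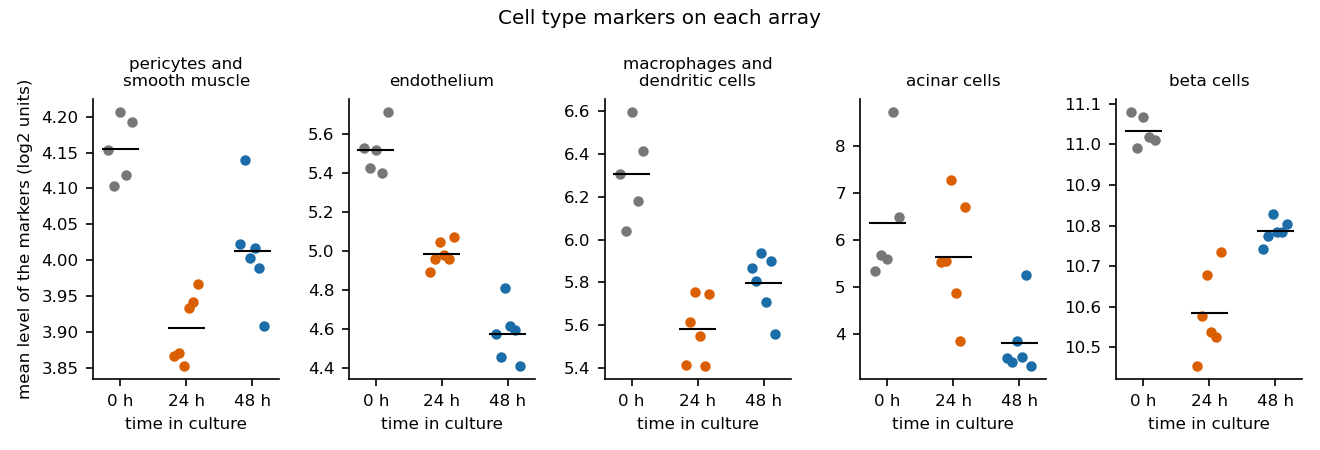
Mean level of the markers of 5 cell types (log2 units, vertical axis, with its own range per panel) on each array by time in culture (horizontal axis). Points are arrays and lines are means over the arrays of a time. The endothelial points run from 5.40 to 5.72 at 0 h, 4.89 to 5.08 at 24 h and 4.41 to 4.81 at 48 h, and the beta cell points are lowest at 24 h (10.45 to 10.73).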

How the data were processed

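RNA of mouse islets was measured on Affymetrix Mouse Genome arrays in 17 samples. The deposited log2 values came from RMA, which the submitters' processing notes name (version not given in the sources used here). The base of the log was inferred from their range, 1.55 to 13.81. RMA fits background, quantile scaling and probe effects over all arrays together, which compresses differences of dim probe sets. No detection calls were used, so a level at or under the table median is taken as not separated from background and its fold as a lower bound.

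Of 45101 probe sets, 64 controls were left out. Of the rest, 34945 had 1 gene symbol, 932 had several and 9160 were not listed, and genes were named from the first kind only. The probe set with the highest mean stood for its gene. A limma model (version 3.58.1, R 4.3.3) with 1 mean per time was fitted to all 45037 probe sets and 17 arrays, with Benjamini-Hochberg adjustment over them and a threshold of 0.05. Exact permutation tests used scipy 1.17.1 (Python 3.11.15). Members and lists were chosen with earlier results of these data known. Named genes are all members, all other RGS genes that passed or were above the median level, up to 4 members of each list with the largest changes among those past the threshold, and the 5 genes most like Rgs4, Rgs2 and Rgs5. Chrm3, Gnb5, Pdgfrb and Cspg4, outside that rule, are named for their roles, chosen with their values known, as are genes with weaker calls. All 8 genes matched a RefSeq promoter (GRCm38.p6), and the motifs were chosen with the sequences known.

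Samples were grouped by the labels' time, and replicates are batches, each a separate pool of mice. Same-numbered samples came from 1 pool of islets, which is what pairs them. Over 16 same-batch pairs, deviations from the time means correlated at a median of 0.00545, against -0.00978 over 80 pairs from different batches. The number of arrays limits the precision. The alternatives tried were batch as a block (fixed, or random), array weights, median centring, another quantile normalization, a filter on level, a trended robust prior, fits of the compared arrays alone, other choices of probe sets, and leaving out each array.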

Additional observations from a re-analysis of the deposited data

Results flagged for a closer look

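In 105 groups of arrays (probe sets of RGS genes by time), 4 held an array that stood apart from the others of its time, and chance gives about 1 in 20. On 1454026_a_at of Rgs3, 48 h replicate 1 was highest at 4.63, where the others were at 3.80 to 4.10. On 1450693_at of Rgs17, 24 h replicate 5 was lowest at 7.34, where the others were at 7.81 to 7.99. On 1453060_at of Rgs8, 24 h replicate 4 was highest at 2.87, where the others were at 2.73 to 2.78. On 1442263_at of Rgs13, 0 h replicate 3 was highest at 2.24, where the others were at 1.96 to 2.04. The values of Rgs8 and Rgs13 are under the median level.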

How the results depend on the processing

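The differences from 0 h of Rgs4, Rgs2, Rgs5 and Rgs17 kept their direction under every alternative run, while differences near 0 of Rgs3, Rgs9, Rgs10 and Rgs16, and of Rgs5 and 1443250_at of Rgs2 between 48 h and 24 h, changed sign under some. With the batch as a replicate block over the complete batches, the difference of Rgs4 on 1416286_at at 24 h was 3.11 ± 0.19. Beside the calls named with the results, the block over all arrays ended those of Gnat2 (adjusted p = 0.0623) and Gna13 (adjusted p = 0.0542) at 48 h, and of the markers Egfl7, Dpt, Adgre1, Cd79b, Cpa1, Cela3b, Clps and Ucn3 in 1 comparison each (adjusted p of 0.0543 to 0.0959). The count of other RGS genes that changed at 24 h, 1 in the fit over all arrays, was 0 with the replicate block, in complete batches with the block, with a trended robust prior, with a filter on level, and without both arrays that stood apart (chosen after seeing the data), and 0 to 1 when 1 array was left out. At 48 h it was 0 with the filter on level, where Rgs1 was not tested, and 1 when 1 array was left out. Between 48 h and 24 h it was 0, and 0 to 1 when 1 array was left out. For the 115 pathway genes the count between 48 h and 24 h, 2, was 1 with the block and with median centring, 0 in complete batches with the block and 0 with only the arrays compared, and 0 to 3 when 1 array was left out. Their count at 48 h ran from 11 to 22 and at 24 h from 13 to 20 when 1 array was left out. Each summary result under each alternative was taken as 1 case. In 31 cases a count of called genes was lower and in 1 it was higher, beyond the margin set. The 379 cases within their margin pool such counts with the differences of Rgs4, Rgs2 and Rgs5 between times. As those genes were picked for their differences from 0 h, the 379 do not measure how stable the counts were. Batch 5 has no 0 h array here, so its differences from 0 h could not be taken within the batch. Dim probe sets limit what can be said of 7 of the 24. The cause of the changes was not tested.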
